A study of Rattus norvegicus with 30 samples.

Results

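The lysosome and autophagy genes described here are a list of 44 genes chosen by name, of which 42 had a probe set on the array that carries their symbol and no other. They are 42 of the 14217 genes named on the array. The rule uses no measured value, but the list was drawn up with earlier results of these data known. Each gene is read from its brightest probe set, by mean log2 signal over 30 arrays. The measured members fall into 4 classes: 17 luminal enzymes with their activator protein (called hydrolases below), 4 membrane proteins, 9 parts of the proton pump and 12 autophagy genes. Map1lc3b and Gabarapl2 are not analysed here. All 42 members lay above the filter on dim probe sets, so none was lost to it.

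The arrays measured RNA from primary hepatocytes of male Sprague Dawley rats, thawed from frozen stock, plated on collagen with a Matrigel overlay and dosed on day 3 of culture. Clofibrate was given at 60 uM or 1000 uM, and DMSO (1%) was the vehicle control. RNA was taken after 24 h or 48 h from 5 wells of each of the 6 combinations, and every well was hybridised to an array of its own. The design sets 2 doses of the drug against vehicle at each of 2 times. The labels call the wells independent cultures but do not say how many rats the cells came from, so the p-values measure the spread between wells.

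Clofibrate is a fibrate, a ligand of the nuclear receptor PPAR-alpha, which switches on genes of fatty acid oxidation in liver. Lysosomes are acidic organelles in which hydrolases break down proteins, lipids and sugars, and a vacuolar proton pump in their membrane keeps the lumen acid. Autophagy encloses cytoplasm in a double membrane that carries proteins of the Atg8 family and then fuses with the lysosome. In liver, part of the breakdown of stored fat runs through autophagy and lysosomal acid lipase. The transcription factor Tfeb binds an E-box with the core CACGTG, typically within TCACGTGA, in front of many lysosomal genes.

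The upstream sequence of 4 members is shown because they had the highest (Lipa and Scarb2) and lowest (Neu1 and Ctss) mean log2 change at 1000 uM over both times. Lamp1, chosen after the sequences were read, is shown for comparison because its promoter holds more copies of CACGTG than any other member's. Each line gives the 250 bases before the start site, 5′ to 3′ on the gene's strand, from RefSeq (build GRCr8), in lower case with CACGTG, or TCACGTGA where it is complete, in capitals. The windows lie at chr1:241470741-241470990, minus strand (Lipa), chr14:15842333-15842582, plus strand (Scarb2), chr20:3906384-3906633, minus strand (Neu1), chr2:185775146-185775395, plus strand (Ctss) and chr16:83075064-83075313, minus strand (Lamp1).
Lipa: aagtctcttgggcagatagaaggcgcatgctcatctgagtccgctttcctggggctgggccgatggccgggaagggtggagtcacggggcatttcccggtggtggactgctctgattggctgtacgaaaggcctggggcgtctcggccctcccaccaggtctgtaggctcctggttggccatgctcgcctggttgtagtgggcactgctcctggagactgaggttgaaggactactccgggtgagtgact
Scarb2: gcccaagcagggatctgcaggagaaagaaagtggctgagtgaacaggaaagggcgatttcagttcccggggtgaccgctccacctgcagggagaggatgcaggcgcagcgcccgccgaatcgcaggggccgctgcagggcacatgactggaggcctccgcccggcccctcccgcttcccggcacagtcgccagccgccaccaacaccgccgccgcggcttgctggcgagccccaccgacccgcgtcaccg
Neu1: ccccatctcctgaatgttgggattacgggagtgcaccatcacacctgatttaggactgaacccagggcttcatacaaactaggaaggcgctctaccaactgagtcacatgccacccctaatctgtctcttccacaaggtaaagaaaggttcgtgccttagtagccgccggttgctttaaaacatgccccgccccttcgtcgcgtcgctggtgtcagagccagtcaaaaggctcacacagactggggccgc
Ctss: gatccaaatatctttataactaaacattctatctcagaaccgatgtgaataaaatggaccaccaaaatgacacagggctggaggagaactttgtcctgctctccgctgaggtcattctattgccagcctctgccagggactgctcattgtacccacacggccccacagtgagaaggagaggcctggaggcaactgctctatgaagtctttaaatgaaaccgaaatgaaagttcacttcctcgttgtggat
Lamp1: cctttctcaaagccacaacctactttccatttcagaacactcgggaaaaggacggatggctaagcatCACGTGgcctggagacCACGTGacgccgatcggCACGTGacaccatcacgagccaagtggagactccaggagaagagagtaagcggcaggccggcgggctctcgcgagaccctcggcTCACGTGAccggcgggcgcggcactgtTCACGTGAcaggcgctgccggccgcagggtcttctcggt
The Lipa, Scarb2, Neu1 and Ctss lines hold no capitals, so neither motif was found in these windows. The Lamp1 line holds 5 copies of CACGTG, of which 2 lie within TCACGTGA.

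The 300 bases from 250 before to 50 after the start site were searched on both strands for 3 motifs, and 35 of the 42 measured members had an entry in the RefSeq table. CACGTG occurred in 9 of 35 members (25.7%) and in 6.42% of the 33469 promoters of that table. TCACGTGA, every copy of which also holds CACGTG, occurred in 5 members (14.3%) and in 0.777% of all promoters. A pair of AGGTCA copies in the same direction and 1 base apart, the core of the site that PPAR-alpha binds, occurred in 0 of 35 members and in 0.0538% of all promoters. An exact pair is so rare in these windows that 0 of 35 says nothing about the members. The members' windows had a median GC content of 58.7%, against 51.7% over all promoters of the table. Besides Lamp1, the members with TCACGTGA are these, with the octamer in capitals within 20 bases.
Ctsd, from base -11 at chr1:206968820-206968839, minus strand: ccgcgtcTCACGTGAcccgt
Atp6v0d1, from base -53 at chr19:50357289-50357308, minus strand: attgtggTCACGTGAgatgc
Atg3, from base -17 at chr11:69159285-69159304, minus strand: attcgagTCACGTGAggcct
Vps11, from base -26 at chr8:53595391-53595410, minus strand: atggctcTCACGTGAttcgc
Vps11, from base -5 at chr8:53595370-53595389, minus strand: ttgtggtTCACGTGAtcttg
On the deposited scale these 5 genes did not move together at 1000 uM and 48 h: the log2 change was 0.44 for Ctsd and 0.18 for Lamp1, -0.21 for Vps11, and 0.0073 for Atg3 and -0.042 for Atp6v0d1, which did not pass the test. Scaling to the spike-in controls, described below, adds 0.16 to each of them, which leaves Vps11 below 0 and brings Atp6v0d1 above it. The 5 genes therefore share no direction under that scaling either. The direction of Atp6v0d1 depends on the scaling, and the Lamp1 and Vps11 calls did not hold under all alternatives.

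The deposited signals had a trimmed mean (lowest and highest 2% left out) of 1501 on each of the 30 arrays. Arrays of one group correlated at 0.964 to 0.979 (Pearson's r of log2 signal over probe sets), and 1 DMSO array at 48 h (replicate 1) stood apart, with a residual SD of 0.336 log2 units against 0.243 to 0.297 for the other 29. Of 8 genes known to respond to PPAR-alpha, 6 were measured, and each of the 6 passed upward in all 4 comparisons with DMSO. Hepatocyte markers (11 of 12 on the array) were above the blank-probe floor in every group, but moved with the dose: at 1000 uM 1 rose and 8 fell at 24 h (median log2 change -0.20) and 2 rose and 5 fell at 48 h (-0.06). Their summed signal ran from 515021 to 569662 at 1000 uM against 621582 to 695259 in DMSO at 24 h, and from 507641 to 534593 against 561403 to 670490.0 at 48 h, and the part of this in the members' changes was not tested. Of 20 Kupffer cell and macrophage markers, 17 were on the array and 15 or 16 were above the floor in each group.

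A gene was called changed when its adjusted p was under 0.05 (limma on log2 signal, one fit over all 6 groups, Benjamini-Hochberg over the 18625 probe sets kept). At 60 uM and 24 h, 2 of 42 members rose and 2 fell, where 4.55% of the 10627 genes tested rose and 3.76% fell. At 1000 uM and 24 h, 6 rose and 7 fell, against 13.4% and 20.5% of all genes. At 60 uM and 48 h, 4 rose and 6 fell, against 5.70% and 5.79%. At 1000 uM and 48 h, 10 rose and 15 fell, against 17.1% and 26.8%, and without the DMSO array that stood apart 9 rose and 14 fell. The members' median log2 change against DMSO was -0.006 and -0.051 at 24 h (60 uM, then 1000 uM) and -0.022 and -0.055 at 48 h, where all genes had medians of -0.022, -0.058, -0.013 and -0.057. The medians of the members lay close to those of all genes, and single members moved far up and down around them. At 1000 uM and 48 h the calls are 23.8% of the members upward and 35.7% downward, each a larger share than over all genes.

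The split into rises and falls depends on how arrays are scaled. Scaling to the poly-A spike-in controls adds the same amount to every gene of a comparison: 0.12 and 0.23 log2 units at 24 h (60 uM, then 1000 uM) and 0.036 and 0.16 at 48 h. With it, 2 members rose and 0 fell at 60 uM and 24 h, 17 and 0 at 1000 uM and 24 h, 1 and 1 at 60 uM and 48 h, and 12 and 4 at 1000 uM and 48 h. Median centring gave 2 and 0 at 60 uM and 24 h, 9 and 3 at 1000 uM and 24 h, and 1 and 4 at 60 uM and 48 h. Quantile normalization gave 2 and 4 at 60 uM and 24 h. Here and below, counts under these alternatives are given without the share over all genes. They show how the split of the members moves, not how the members differ from all genes. Of the 25 calls at 1000 uM and 48 h, 10 held under all alternatives that were run: Lipa, Psap, Ctsd, Ctsa, Scarb2 and Lamp2 upward, and Neu1, Cd63, Gabarapl1 and Sqstm1 downward. Of the 13 calls at 1000 uM and 24 h, those of Lipa, Psap, Scarb2 and Atp6v1f did. For Lipa, Psap, Ctsd, Ctsa, Scarb2, Cd63 and Atp6v1f no second probe set was measured. The alternative that uses the second brightest probe set could therefore not change their calls.

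**Figure D1:**
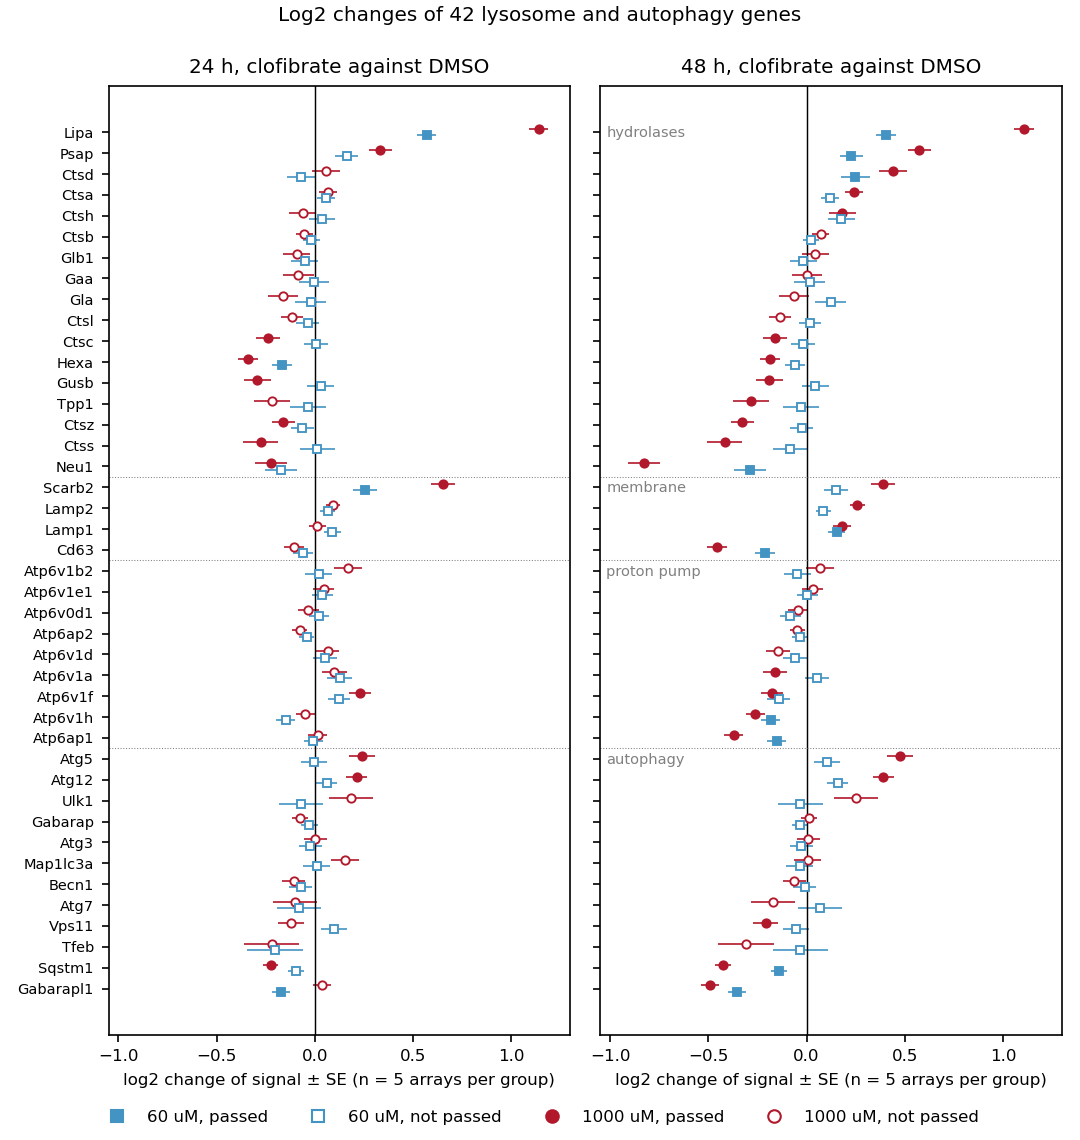
Log2 change of signal (horizontal axis, ± SE) of the 42 measured members at 24 h (left) and 48 h (right), for 60 uM (squares) and 1000 uM (circles) against DMSO, 5 arrays per group; filled symbols passed the test, and genes run down by class and by their change at 1000 uM and 48 h. Lipa lies farthest right in both panels at 1000 uM, and Neu1 farthest left at 48 h.

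The hydrolases split in both directions. Lipa (probe set 1368075_at), the lysosomal acid lipase that cleaves cholesteryl esters and triglycerides, had the largest change of all members. At 24 h its signal was 8641, 8335, 9109.7, 9881 and 9661 in DMSO cultures, 12859.7, 13174, 14494, 13707 and 13382 at 60 uM, and 19409, 19551, 20053, 20292 and 21040.0 at 1000 uM. The 3 doses formed 3 separate ranges with no overlap. Lipa rose by 0.57 ± 0.05 (SE, adjusted p = 3.15e-10) on the log2 scale at 60 uM and by 1.14 ± 0.05 (SE, adjusted p = 1.09e-18) at 1000 uM, where it was 2.2-fold higher. At 48 h the means were 8539 ± 543 in DMSO, 11277 ± 316 at 60 uM and 18374 ± 1225 at 1000 uM (SD, n = 5 each), again without overlap. The log2 rises at 48 h were 0.40 ± 0.05 (SE, adjusted p = 4.06e-07) at 60 uM and 1.11 ± 0.05 (SE, adjusted p = 1.56e-18) at 1000 uM.

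Psap (1369929_at) encodes prosaposin, which is cut into the saposins that help hydrolases reach sphingolipids. Its signal at 48 h was 11465, 12462, 10916, 11259.7 and 11532 in DMSO cultures, 12607, 13304, 13174, 14875 and 13503 at 60 uM, and 16118, 16695, 16109, 17230.2 and 19782 at 1000 uM. Both doses lay above the whole DMSO range. Psap rose by 0.23 ± 0.058 (SE, adjusted p = 0.00897) at 60 uM and 0.57 ± 0.058 (SE, adjusted p = 7.87e-10) at 1000 uM. At 24 h its means were 10473 ± 494, 11716 ± 501 and 13229 ± 1185 (DMSO, 60 uM, 1000 uM; SD, n = 5), and 1000 uM passed (log2 0.33 ± 0.058 SE, adjusted p = 2.60e-05) while 60 uM did not (adjusted p = 0.101). Ctsd (1367651_at), the aspartic protease cathepsin D, changed at 48 h. It had 13253, 11175, 10008, 12369 and 10130.0 in DMSO cultures, 13231, 12993, 12932, 13232 and 14948 at 60 uM, and 14104, 15516, 15334, 14645 and 17324 at 1000 uM. All 1000 uM cultures were above the DMSO range, and the 60 uM cultures overlapped it. Its log2 change was 0.25 ± 0.072 (SE, adjusted p = 0.0239) at 60 uM and 0.44 ± 0.072 (SE, adjusted p = 7.82e-06) at 1000 uM, against -0.068 and 0.056 at 24 h, neither of which passed. The 60 uM call for Ctsd at 48 h was lost without any one of 3 arrays (DMSO replicates 3 and 5, 60 uM replicate 5), with log2 values of 0.20 to 0.21. Ctsa, a carboxypeptidase that shields Neu1 and Glb1 in a complex, rose by 0.24 ± 0.046 (SE, adjusted p = 6.18e-05) at 1000 uM and 48 h. Ctsh, an aminopeptidase, passed in the same comparison at 0.18 ± 0.068 (SE, adjusted p = 0.0347), but its call was lost in 7 of 30 fits that left out 1 array (log2 0.13 to 0.18).

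Neu1 (1369081_at), the lysosomal sialidase, fell most. At 48 h it had 1889.8, 2156, 1934, 1955 and 2066 in DMSO cultures, 1618, 1588, 1618, 1477 and 1907 at 60 uM, and 1158, 1105, 1093, 1187 and 1091 at 1000 uM. The 1000 uM cultures were all below the other 2 groups, and 1 of the 60 uM cultures reached into the DMSO range. The log2 change was -0.29 ± 0.082 (SE, adjusted p = 0.0207) at 60 uM and -0.83 ± 0.082 (SE, adjusted p = 5.38e-10) at 1000 uM, where Neu1 was 1.77-fold lower. At 24 h its means were 1526 ± 162, 1351 ± 95.2 and 1309 ± 143 (DMSO, 60 uM, 1000 uM; SD, n = 5); the log2 change of -0.22 ± 0.082 (SE) at 1000 uM had an adjusted p of 0.0409, and the call was lost in 6 of the 30 fits without 1 array and under 7 other alternatives, among them spike-in scaling (0.0050). The 60 uM call at 48 h was lost without DMSO replicate 2 or 60 uM replicate 4 (log2 -0.25 to -0.26).

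Ctss (1387005_at) is cathepsin S, a cysteine protease best known from macrophages and other antigen-presenting cells. At 48 h its signal was 1780.0, 1368, 1644, 1332 and 1207 in DMSO cultures, 1349, 1354, 1349, 1427 and 1363 at 60 uM, and 1064, 1186, 1103, 1196 and 907 at 1000 uM. The 1000 uM cultures lay below both other groups. Ctss fell by 0.42 on the log2 scale at 1000 uM and 48 h (SE 0.089, adjusted p = 2.61e-04) and by 0.28 at 24 h (adjusted p = 0.0171). The 24 h call was lost without DMSO replicate 3 or 1000 uM replicate 5 (log2 -0.23 to -0.24). With spike-in scaling Ctss passed at neither time: 0 hydrolases were lower at 24 h, and Neu1 alone at 48 h. The summed signal of the 17 Kupffer cell and macrophage markers on the array ran from 23430.5 to 24649 at 1000 uM against 24868 to 29475 in DMSO at 48 h, and from 26055 to 28148 against 30277 to 31808 at 24 h. The bright gene Lyz2 carries much of that gap: it read 4083 to 4439 at 1000 uM against 6642 to 8286 in DMSO at 48 h, while the other 16 summed to 19290.1 to 20490.0 against 17694 to 21342, with overlap. Cd14 was the brightest of those 16, with a mean log2 signal of 13.83 in both groups at 48 h. It weighs heavily in their sum, which therefore says little about the dimmer markers. At 24 h the other 16 summed to 21319 to 22168 against 22546 to 24598, below the DMSO range. Of 13 such markers tested, 1 rose (Tyrobp) and 3 fell (Lyz2, C1qb and Fcer1g) at 48 h (median -0.0074), and 0 rose and 1 fell (Lyz2) at 24 h (median -0.13). Passing or not, 6 had a log2 change above 0 and 7 below at 48 h, and 2 above and 11 below at 24 h. None of the 17 is at 0, and the macrophage marker Itgam lies below the floor at 24 h, with a mean log2 signal of 4.42 against a floor of 4.48 at 1000 uM and 4.72 against 5.49 in DMSO. At 48 h both Itgam and Adgre1 lie below it. Itgam had 4.66 and Adgre1 5.56 against a floor of 6.31 at 1000 uM, and 4.55 and 4.84 against 5.08 in DMSO. The part of these markers in the Ctss result was not tested. In bulk RNA, fewer cells of a type and less RNA per cell cannot be told apart.

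Hexa (1373222_at), the alpha subunit of beta-hexosaminidase, had the lowest log2 change of the 17 hydrolases at 1000 uM and 24 h. It had 4715, 4542, 4305, 4820.0 and 4535 in DMSO cultures, 4020.4, 4132, 4160.5, 3849 and 4272 at 60 uM, and 3319, 3622, 4025, 3589 and 3589 at 1000 uM. Both treated groups lay below the DMSO range. Its log2 change was -0.17 ± 0.051 (SE, adjusted p = 0.0445) at 60 uM and -0.34 ± 0.051 (SE, adjusted p = 2.55e-06) at 1000 uM; at 48 h it was -0.059 (not passed) and -0.19 ± 0.051 (SE, adjusted p = 0.00333). The 60 uM call was lost in 12 of 30 fits without 1 array. At 1000 uM the dipeptidyl peptidase Ctsc, the beta-glucuronidase Gusb and the carboxypeptidase Ctsz fell at both times (log2 -0.24, -0.29 and -0.16 at 24 h, -0.16, -0.19 and -0.33 at 48 h), and the tripeptidyl peptidase Tpp1 at 48 h alone passed (-0.28, against -0.22 at 24 h). Ctsc at 48 h lost its call in 7 of 30 fits without 1 array, Ctsz at 24 h in 6, Gusb at 48 h in 4 and Tpp1 at 48 h without DMSO replicate 5 or 1000 uM replicate 5 (log2 -0.20 to -0.23). Ctsb, Ctsl, Gaa, Gla and Glb1 did not pass against DMSO at either dose or time, with log2 changes from -0.16 to 0.12. In all, the hydrolases counted 5 rises and 7 falls of 17 at 1000 uM and 48 h (6 and 1 with spike-in scaling), and 2 and 6 at 24 h (3 and 0). On the deposited scale the 48 h counts are 29.4% and 41.2%, against 17.1% and 26.8% of all genes. Those at 24 h are 11.8% and 35.3%, against 13.4% and 20.5%.

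**Figure D2:**
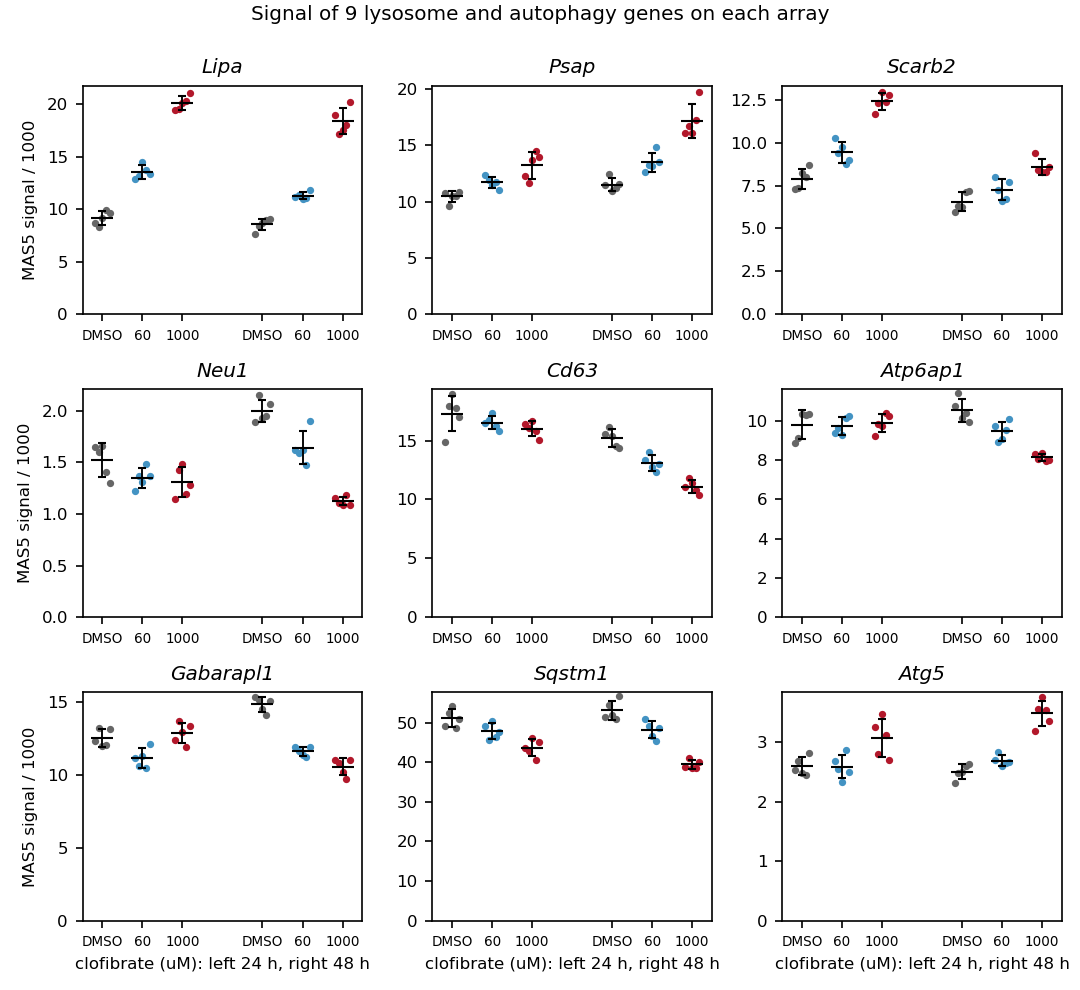
MAS5 signal divided by 1000 (vertical axis, from 0) of 9 members in each culture at DMSO, 60 uM and 1000 uM (horizontal axis), with 24 h on the left and 48 h on the right of each panel; points are arrays, bars the mean ± SD of 5. Lipa steps up with dose at both times, while Neu1, Cd63, Atp6ap1, Gabarapl1 and Sqstm1 step down with dose at 48 h.

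Of the 4 membrane proteins, 3 rose and 1 fell at 1000 uM and 48 h, also with spike-in scaling. On the deposited scale this is 75% and 25%, against 17.1% and 26.8% of all genes. Scarb2 (1368379_at) is LIMP-2, the receptor that carries glucocerebrosidase to the lysosome. At 24 h it had 7296, 7336, 8217, 7982 and 8685 in DMSO cultures, 10300.0, 9422, 9758, 8732 and 9001 at 60 uM, and 11683, 12303, 12961, 12368 and 12796 at 1000 uM. The 3 ranges did not overlap. Scarb2 rose by 0.26 ± 0.061 (SE, adjusted p = 0.00587) at 60 uM and 0.65 ± 0.061 (SE, adjusted p = 1.91e-10) at 1000 uM. At 48 h the means were 6556 ± 552, 7263 ± 609.5 and 8579 ± 461 (DMSO, 60 uM, 1000 uM; SD, n = 5), and 1000 uM passed (log2 0.39 ± 0.061 SE, adjusted p = 3.40e-06) while 60 uM did not (adjusted p = 0.148).

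Cd63 (1367709_at), a tetraspanin of late endosomes and lysosomes, moved the other way. Its 48 h signal was 15588, 16134, 15392, 14498 and 14376 in DMSO cultures, 13383, 14069, 12734, 12358 and 13005 at 60 uM, and 11058, 11787, 11368, 10789.8 and 10374 at 1000 uM. The 3 ranges were separate and ran downward with dose. The log2 change was -0.21 ± 0.05 (SE, adjusted p = 0.00421) at 60 uM and -0.46 ± 0.05 (SE, adjusted p = 5.00e-09) at 1000 uM, and at 24 h -0.062 and -0.11, neither of which passed. Lamp2 (1370010_at), a glycoprotein of the lysosomal membrane with a splice form that imports proteins in chaperone-mediated autophagy, had 47250.0, 48503, 45404, 47999 and 45946 at 1000 uM, against 40451, 38819.5, 37690.0, 39999 and 39637 in DMSO at 48 h. The groups did not overlap, and the log2 change was 0.26 ± 0.038 (SE, adjusted p = 1.05e-06). At 24 h Lamp2 averaged 43044 ± 1072 at 1000 uM and 40418 ± 2509 in DMSO (SD, n = 5 each) and did not pass (adjusted p = 0.0642). Lamp1 (1368504_at), its close relative, had 27915, 25347, 27599, 27498 and 27082 at 1000 uM, against 25276, 24105, 24381, 22568 and 23224 in DMSO at 48 h. These groups did not overlap either, and Lamp1 rose by 0.18 ± 0.044 (SE, adjusted p = 0.0012) at 1000 uM and 0.15 ± 0.044 (SE, adjusted p = 0.0201) at 60 uM; the 60 uM call was lost in 5 of 30 fits without 1 array. At 24 h Lamp1 averaged 21705 ± 525 at 1000 uM and 21537 ± 1225 in DMSO (SD, n = 5 each; adjusted p = 0.877).

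The proton pump genes fell at 48 h where they passed at all, except that scaling to the spike-in controls left no pump call at 48 h and turned the class median to 0.017. On the deposited scale the class median at 1000 uM and 48 h was -0.15, with 4 of 9 genes lower (44.4%, against 26.8% of all genes) and 0 higher (against 17.1%). Atp6ap1 (1367873_at), an accessory subunit needed for assembly of the pump, had 10767, 11439, 10158, 10377 and 9953 in DMSO cultures at 48 h, 9752, 8907, 9099, 9552 and 10086 at 60 uM, and 8307, 8079.6, 8363, 7957 and 7998 at 1000 uM. The 1000 uM cultures lay below every other culture of that time, and 60 uM overlapped DMSO. Its log2 change was -0.15 ± 0.049 (SE, adjusted p = 0.0453) at 60 uM, lost in 13 of 30 fits without 1 array, and -0.37 ± 0.049 (SE, adjusted p = 1.71e-07) at 1000 uM. At 24 h its means were 9889.6 ± 463 at 1000 uM and 9807 ± 728 in DMSO (SD, n = 5 each; log2 0.014, not passed). Atp6v1h (1379730_at), the regulatory subunit H, had 6688, 6543, 6294, 6755 and 6487 at 1000 uM and 6145, 7249.8, 6767, 7145 and 7345 at 60 uM, against 7946, 8319, 8086, 7371 and 7582 in DMSO at 48 h. Both treated groups were below the DMSO range. The log2 change was -0.26 ± 0.048 (SE, adjusted p = 4.43e-05) at 1000 uM and -0.18 ± 0.048 (SE, adjusted p = 0.0114) at 60 uM; without 60 uM replicate 1 the 60 uM value was -0.14 and did not pass.

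Atp6v1f (1398781_at), subunit F of the rotor, changed in opposite directions at the 2 times. At 48 h it had 15548, 15216, 13256, 13404 and 12947 at 1000 uM, against 16639, 17064, 17353, 14282 and 14215 in DMSO, with overlap (log2 -0.18 ± 0.057 SE, adjusted p = 0.0141). The 48 h call was lost without DMSO replicate 2 or 3 or 1000 uM replicate 5 (log2 -0.14 to -0.15). At 24 h it had 18955, 18317, 18015, 17208 and 16767 at 1000 uM, against 14773, 16238, 15415, 14733 and 14873 in DMSO, with no overlap (log2 0.23 ± 0.057 SE, adjusted p = 0.00188). Atp6v1a (1374431_at), the catalytic subunit A, had 6263, 6763, 6672, 6859 and 6674 at 1000 uM, against 7883, 6996, 7704, 8398 and 6311 in DMSO at 48 h. These ranges overlapped, its log2 change was -0.16 ± 0.062 (SE, adjusted p = 0.0415), and the call was lost in 7 of 30 fits without 1 array (log2 -0.12 to -0.17). At 24 h Atp6v1a averaged 7490.3 ± 421 at 1000 uM and 7005 ± 692 in DMSO (SD, n = 5 each) and did not pass. Subunits B2, D and E1 of the cytosolic sector (Atp6v1b2, Atp6v1d, Atp6v1e1), subunit d1 of the membrane sector (Atp6v0d1) and the accessory protein Atp6ap2 did not pass against DMSO at either dose or time, with log2 changes from -0.15 to 0.17.

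Among 12 autophagy genes, 2 rose and 3 fell at 1000 uM and 48 h (3 and 2 with spike-in scaling). On the deposited scale this is 16.7% and 25%, near the 17.1% and 26.8% of all genes. Gabarapl1 (1371680_at), an Atg8 family protein that is attached to the autophagosome membrane, had 15343, 15084, 14492, 14061 and 15070.3 in DMSO cultures at 48 h, 11869.5, 11608, 11349, 11230.0 and 11868 at 60 uM, and 11026, 10799.7, 10174, 9684 and 10988 at 1000 uM. Each dose lay in a range of its own, downward with dose. It fell by 0.35 at 60 uM (adjusted p = 9.53e-07) and by 0.49 at 1000 uM (adjusted p = 1.28e-10) on the log2 scale. At 24 h its means were 12512 ± 590.1 in DMSO, 11124 ± 666 at 60 uM and 12846 ± 718 at 1000 uM (SD, n = 5 each). Only 60 uM passed there, at -0.17 ± 0.046 (SE, adjusted p = 0.0177), and that call was lost without DMSO replicate 2 or 5 or 60 uM replicate 2 or 4. Of its relatives, Map1lc3a (an LC3 protein) and Gabarap passed against DMSO at no dose or time, with log2 changes of 0.0057 and 0.014 at 1000 uM and 48 h.

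Sqstm1 (1371353_at) encodes p62, the receptor that binds ubiquitin-tagged cargo and is itself degraded by autophagy. At 48 h it had 51486, 54510.5, 51864, 50917 and 56717 in DMSO cultures, 50937, 49198, 46655, 45418 and 48690.4 at 60 uM, and 38814, 41151, 38596, 38672 and 40051 at 1000 uM. All 1000 uM cultures were below the other 2 groups, and 60 uM overlapped DMSO. The log2 change was -0.14 ± 0.04 (SE, adjusted p = 0.0214) at 60 uM and -0.43 ± 0.04 (SE, adjusted p = 1.51e-10) at 1000 uM; the 60 uM call was lost without DMSO replicate 2 or 5 or 60 uM replicate 3 or 4 (log2 -0.12 to -0.13). At 24 h Sqstm1 averaged 43699 ± 2108 at 1000 uM and 51077 ± 2267 in DMSO (SD, n = 5 each; log2 -0.23 ± 0.04 SE, adjusted p = 3.75e-05), without overlap.

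Atg5 and Atg12, which are joined to each other to form the conjugate that helps attach Atg8 proteins to lipid, both rose at 1000 uM. Atg5 (1385526_at) had 3196, 3564, 3765, 3541 and 3354 at 1000 uM, against 2309, 2486, 2499.6, 2593 and 2628 in DMSO at 48 h. Atg12 (1371614_at) had 8253, 8756, 7826, 9259 and 8381 at 1000 uM, against 5779, 6558, 6188, 7246 and 6695 in DMSO. Neither gene's groups overlapped. At 48 h the log2 rise was 0.48 ± 0.066 (SE, adjusted p = 3.76e-07) for Atg5 and 0.39 ± 0.053 (SE, adjusted p = 3.42e-07) for Atg12. At 24 h Atg5 averaged 3071 ± 319 at 1000 uM and 2595 ± 153 in DMSO (SD, n = 5 each; log2 0.24 ± 0.066 SE, adjusted p = 0.00515). Atg12 averaged 7539 ± 299 and 6505 ± 342 at 24 h (1000 uM, then DMSO; SD, n = 5 each; log2 0.21 ± 0.053 SE, adjusted p = 0.00219). By these probe sets, neither gene passed at 60 uM at either time. With the second brightest probe set, neither gene passed at 1000 uM at either time (log2 0.24 and 0.23 for Atg5, 0.19 and 0.21 for Atg12). At 60 uM and 24 h the second Atg12 probe set did pass (log2 0.32, limma adjusted p = 0.0178). The third Atg12 probe set passed at 1000 uM and 24 h (0.27, adjusted p = 0.0389) but not at 48 h (0.21).

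Vps11 (1373498_at), a core subunit of the HOPS complex that tethers vesicles to the lysosome, had 1599, 1579, 1561, 1568 and 1430.2 at 1000 uM, against 1992, 1852, 1674, 1828 and 1616 in DMSO at 48 h. The ranges did not overlap, and Vps11 fell by 0.21 on the log2 scale (SE 0.066, adjusted p = 0.0114). At 24 h it averaged 1558 ± 52.8 at 1000 uM and 1692 ± 51.4 in DMSO (SD, n = 5 each) and did not pass. Tfeb (1373327_at) had 853, 765, 636, 746 and 735 in DMSO cultures at 48 h, 713, 845, 749, 714 and 631 at 60 uM, and 507, 673, 561, 579 and 706 at 1000 uM. The 3 ranges overlapped. Its log2 change at 1000 uM was -0.31 ± 0.14 (SE, adjusted p = 0.0859) at 48 h and -0.22 ± 0.14 (SE, adjusted p = 0.273) at 24 h, neither of which passed. At 24 h its means were 865 ± 177, 745 ± 98.4 and 741 ± 135 (DMSO, 60 uM, 1000 uM; SD, n = 5). The initiating kinase Ulk1 had log2 changes of 0.19 and 0.25 at 1000 uM (24 h, then 48 h), and did not pass, nor did Becn1 of the lipid kinase complex or the Atg8-attaching enzymes Atg3 and Atg7 (log2 -0.063, 0.0073 and -0.17 at 1000 uM and 48 h).

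Seen by class, the arrays differ in which class leaves the DMSO range. For each array the median over the members of a class was taken after subtracting each gene's DMSO mean of the same time. The membrane class stood at 0.19 to 0.25 log2 units on the 1000 uM arrays, against -0.021 to 0.04 on the DMSO arrays at 48 h. The hydrolases stood at -0.15 to -0.055 at 1000 uM, against -0.014 to 0.027 in DMSO at 24 h, and at -0.086 to 0.031 against -0.049 to 0.048 at 48 h, where the arrays overlapped. The proton pump stood at -0.15 to -0.041 at 1000 uM, against -0.081 to 0.083 in DMSO at 48 h, with overlap. The autophagy class overlapped DMSO at both times, at -0.12 to 0.014 and -0.047 to 0.042 at 48 h (1000 uM, then DMSO). These shifts are small beside the changes of single members, and spike-in scaling turns the medians over genes at 1000 uM above 0 for the hydrolases (0.11) and autophagy genes (0.19, and 0.028 with median centring) at 24 h and for the hydrolases, pump and autophagy genes at 48 h (0.099, 0.017 and 0.13).

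**Figure D3:**
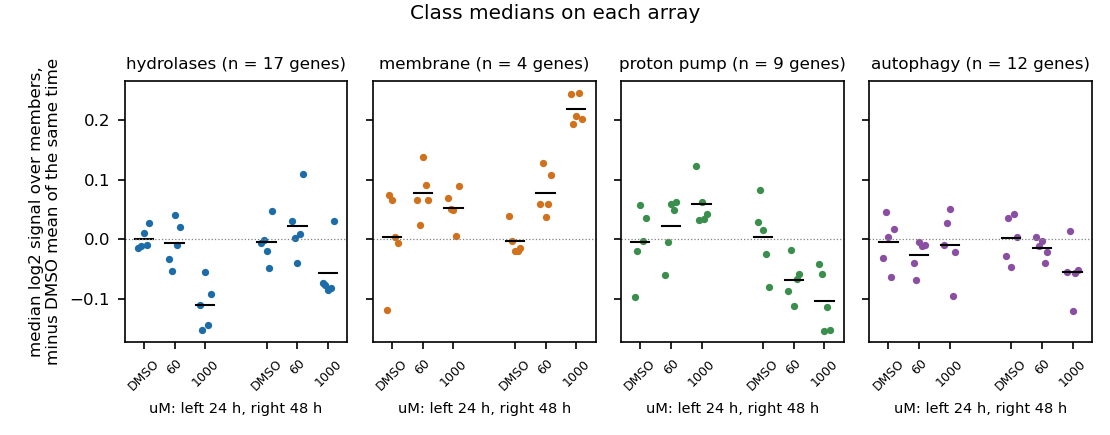
Median log2 signal over the members of each class on each array, minus the DMSO mean of the same time (vertical axis), at DMSO, 60 uM and 1000 uM (horizontal axis; 24 h left, 48 h right); points are arrays and lines the mean of 5. On the deposited scale the membrane class at 1000 uM and 48 h lies at 0.19 to 0.25, above its DMSO arrays, while the 1000 uM arrays of the other classes overlap DMSO at that time; with spike-in scaling the medians over genes of the hydrolases, pump and autophagy genes there turn upward (0.099, 0.017 and 0.13).

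The 2 doses were compared directly. At 1000 uM against 60 uM, 6 of 42 members were higher and 6 lower at 24 h, where 8.75% and 12.8% of all genes were, and 6 were higher and 11 lower at 48 h, against 11.9% and 18.5%. With spike-in scaling the counts were 4 and 0 at 24 h and 9 and 1 at 48 h; median centring gave 7 and 7 at 48 h, and quantile normalization 4 and 6 at 24 h. Lipa was higher at the upper dose by 0.57 ± 0.05 (SE, adjusted p = 1.20e-10) at 24 h and 0.70 ± 0.05 (SE, adjusted p = 5.51e-13) at 48 h. Scarb2 was higher by 0.40 ± 0.061 (SE, adjusted p = 7.57e-06) at 24 h and 0.24 ± 0.061 (SE, adjusted p = 0.00279) at 48 h. Neu1 did not differ past the threshold between doses at 24 h (-0.05) and was lower at 1000 uM by 0.54 at 48 h (adjusted p = 4.64e-06). Gabarapl1 went in both directions, at 0.21 ± 0.046 (SE, adjusted p = 0.00106) at 24 h and -0.14 ± 0.046 (SE, adjusted p = 0.024) at 48 h, and the 48 h call was lost without any one of 4 arrays (60 uM replicates 1 and 5, 1000 uM replicates 3 and 4). Cd63, Sqstm1, Atp6ap1, Ctss, Ctsz, Gusb, Atp6v1a, Tpp1 and Ctsl were the other members lower at 1000 uM at 48 h, with log2 differences of -0.33 to -0.15. The Tpp1 and Ctsl calls were lost in 7 and 6 of 30 fits without 1 array, with values of -0.26 to -0.21 for Tpp1 and -0.16 to -0.098 for Ctsl. Psap, Atg5, Atg12 and Lamp2 were the other members higher at 48 h, by 0.17 to 0.37.

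Time in culture moved some members without the drug. In DMSO, 4 of 42 members were higher and 4 lower at 48 h than at 24 h, where 5.10% of all genes were higher and 3.75% lower. Median centring made this 5 and 1, quantile normalization 7 and 4, and spike-in scaling, which adds 0.15 to every gene here, 9 and 1. Ctss was lower at 48 h by 0.63 on the log2 scale (adjusted p = 6.77e-06), with 1780.0, 1368, 1644, 1332 and 1207 at 48 h against 2145, 2175, 2467, 2385 and 2084 at 24 h, and it alone kept its call under all alternatives. No second probe set of Ctss was measured, so the alternative that uses one could not change its call. The Kupffer cell and macrophage sum was also lower, at 24868 to 29475 at 48 h against 30277 to 31808 at 24 h, with 0 of the 13 markers tested higher and 3 lower. All 13 had a log2 change below 0, with a median of -0.44. The part of these markers in the Ctss change was not tested. Neu1 was higher by 0.40 ± 0.082 (SE, adjusted p = 0.00166), as were Gusb (0.29), Gabarapl1 (0.24) and Lamp1 (0.15). Scarb2 (-0.27), Ctsb (-0.22) and Cd63 (-0.18) were lower. The Lamp1 and Cd63 calls over time were lost in 7 and 5 of 30 fits without 1 array.

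Whether the effect of a dose differed between 24 h and 48 h was tested as an interaction. At 60 uM, 0 of 42 members passed (limma), where 0.0659% of all genes were higher and 0.0847% lower. An unadjusted p under 0.05 was found for 6 of the 42 members and for 878 of the 10627 genes tested. At 1000 uM, 2 members had a more positive effect at 48 h than at 24 h and 7 a more negative one, against 5.27% and 5.54% of all genes. Median centring made these 0 and 6, and spike-in scaling 0 and 5. The more negative ones were Neu1 (-0.61 ± 0.12 SE, adjusted p = 6.08e-04), Gabarapl1 (-0.53 ± 0.065 SE, adjusted p = 8.74e-07), Atp6v1f (-0.41), Atp6ap1 (-0.39), Cd63 (-0.35), Atp6v1h (-0.21) and Sqstm1 (-0.20). The more positive ones were Ctsd (0.38 ± 0.10 SE, adjusted p = 0.0145) and Lamp2 (0.17). Atp6v1h and Lamp2 were close to the threshold, losing their calls in 22 and 21 of 30 fits without 1 array. Lipa, with nearly equal effects at both times, had an interaction of -0.034 ± 0.071 (SE, adjusted p = 0.864). The DMSO levels of Neu1 and Gabarapl1 were themselves higher at 48 h than at 24 h, as given above.

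**Figure D4:**
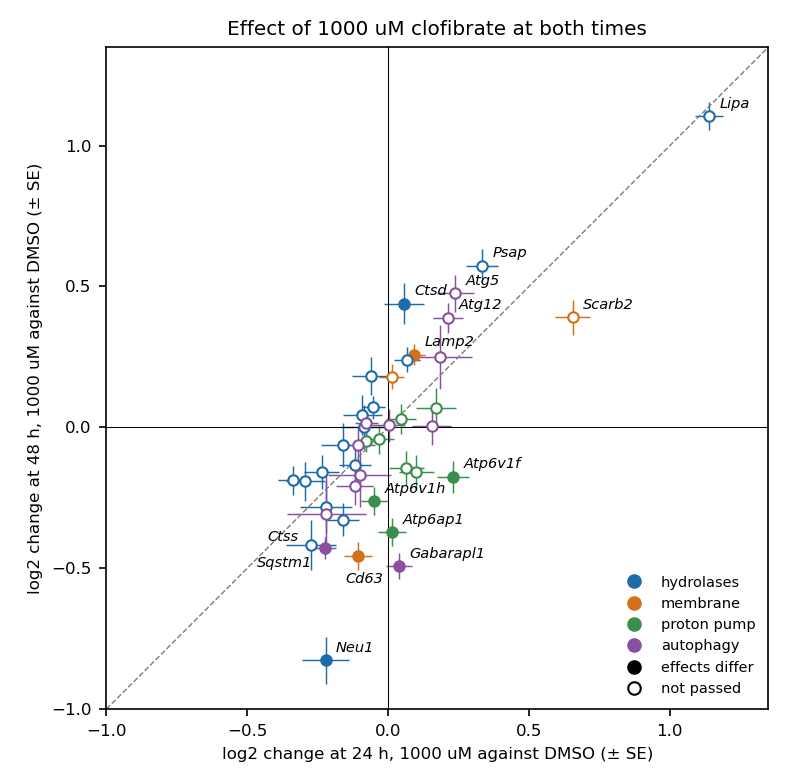
Log2 change at 1000 uM against DMSO at 48 h (vertical axis) against that at 24 h (horizontal axis), ± SE, for 42 members coloured by class; the dashed line marks equal effects, and filled points have effects that differ between times by the interaction test. Neu1, Gabarapl1, Atp6ap1 and Cd63 lie below the line and Ctsd above it, while Lipa lies on it.

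Other probe sets of the same gene give a second reading for 17 members. Over the 84 pairs of a further probe set and a DMSO comparison, 0 had opposite calls, in 8 both probe sets passed in one direction, in 25 a single one passed, and in 51 neither did. The second Sqstm1 probe set fell by 0.75 and the second Neu1 probe set by 0.86 at 1000 uM and 48 h (adjusted p = 2.44e-11 and 1.06e-05), and the second Gabarapl1 probe set by 0.60 (adjusted p = 7.39e-08). The Sqstm1 probe set of rank 3 by brightness did not pass (0.061 at 1000 uM and 48 h). The second Lamp2 probe set rose by 0.65 at 24 h and 0.51 at 48 h, and so passed at 24 h where the brightest did not. Ctsl, which did not pass by its brightest probe set, fell by 0.32 and 0.50 by its second at 1000 uM (24 h, then 48 h). Ulk1 rose by 0.39 and 0.40 and Atp6ap2 by 0.37 (48 h) by the second probe set alone.

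Further genes of the pathway, taken from lists by function, also split in direction at 1000 uM. Of 31 other lysosomal hydrolases measured (40 listed), 6 rose and 9 fell at 24 h (19.4% and 29%, against 13.4% and 20.5% of all genes), and 8 rose and 10 fell at 48 h (25.8% and 32.3%, against 17.1% and 26.8%). The acid sphingomyelinase Smpd1 rose by 0.48 and 0.60 (24 h, then 48 h; adjusted p = 1.09e-08 and 5.08e-11) and the carboxypeptidase Scpep1 by 0.53 and 0.51, while the arylsulfatase Arsa passed at 48 h (0.59). The thioesterase Ppt2 (-0.72) and the carboxypeptidase Prcp (-0.52) fell at 48 h, and the glucosaminidase Naglu at both times (-0.47 and -0.53). Of 33 membrane and sorting genes measured (42 listed), 4 rose and 6 fell at 24 h (12.1% and 18.2%, against 13.4% and 20.5% of all genes). At 48 h, 4 rose and 9 fell (12.1% and 27.3%, against 17.1% and 26.8%). The sorting receptor Sort1 passed at 48 h (0.50), the cystine exporter Ctns at 24 h (0.46) and Cln3 at both (0.40 and 0.44). The transporter Abca2 (-1.36 and -1.43) and the adaptor subunit Ap1m1 (-0.32 and -0.37) fell at both times, and the sialic acid exporter Slc17a5 at 48 h (-0.67). Of 10 other pump subunits measured (16 listed), 3 rose and 1 fell at 24 h (30% and 10%, against 13.4% and 20.5% of all genes). At 48 h, 2 rose and 2 fell (20% and 20%, against 17.1% and 26.8%). The membrane sector subunits Atp6v0a2 (0.41) and Atp6v0e2 (0.25) rose and Atp6v0e1 (-0.34) and Atp6v0c (-0.30) fell at 48 h; Atp6v0b rose at 24 h (0.19).

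Of 49 other autophagy genes measured (56 listed), 7 rose and 13 fell at 24 h (14.3% and 26.5%, against 13.4% and 20.5% of all genes), and 12 rose and 12 fell at 48 h (24.5% and 24.5%, against 17.1% and 26.8%). As for the members, the share upward at 48 h was larger than over all genes. The lipid-binding protein Wdr45 rose by 0.68 and 0.89 and the cargo receptor Optn by 0.54 and 0.37, while Tp53inp2 passed at 48 h (0.57). Its relative Tp53inp1 fell by 0.67 and 1.00 (adjusted p = 1.16e-11 at 48 h), Wipi1, of the same family as Wdr45, by 0.74 and 0.78, and Zfyve1, a marker of early autophagosome sites, by 0.67 and 0.57. Of 39 genes of mTORC1, AMPK and Tfeb regulation measured (43 listed), 7 rose and 16 fell at 24 h (17.9% and 41%, against 13.4% and 20.5% of all genes). At 48 h, 3 rose and 12 fell (7.69% and 30.8%, against 17.1% and 26.8%). The medians were -0.14 and -0.16 (24 h, then 48 h). Sesn1, a leucine sensor of the mTORC1 pathway, fell by 1.70 and 1.24 (adjusted p = 8.03e-15 and 1.16e-11). The Rag GTPase Rragd fell at 48 h (-0.62) and rose at 24 h (0.85), and the folliculin partner Fnip1 rose at both times (0.67 and 0.41). The arginine sensor Castor1 rose (0.62) and the AMPK subunit Prkag2 (-1.01) and the Tfeb relative Mitf (-0.86) fell at 24 h, and none of these 3 passed at 48 h.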

How the data were processed

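Signals of 30 Affymetrix arrays were used, 5 per group. The deposited intensity values were made with MAS5, per the submitters' processing notes, with no version named there. MAS5 scales every array to one trimmed mean, so a change is relative to the mean of its array. The log2 of the deposited intensity was taken, and 57 control probe sets were left out. Probe sets with a mean log2 above the 40th percentile (8.00, a signal of 255) were kept, 18625 of 31042. Of the probe sets, 20826 carry 1 gene symbol in the platform table, 436 several and 9780 none. One mean per group was fitted with limma 3.58.1 in R 4.3.3 (eBayes with an intensity trend), tested first on simulated data, with Benjamini-Hochberg adjustment over the probe sets kept. Changes are log2 differences, tested two-sided.

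Alternatives were median centring, quantile normalization, scaling to 24 poly-A spike-in probe sets, no filter, a stricter filter (60th percentile), a pseudocount of 64, no intensity trend, array weights, only the groups compared, each array left out in turn, the second brightest probe set, and, added after seeing the data, a block for each run of 6 consecutive title numbers. The floor was the highest of 3 blank probe sets for a bacterial gene. All members were named. In each wider list the 3 largest rises and falls at 1000 uM among genes that passed at 24 h or 48 h were named. Values of every array are given for members that passed and were among the 6 largest changes of their class, and for Tfeb. The members and lists were chosen with earlier results of these data known. No scan or culture batch is given in the sources used here. The number of arrays is one limit on the precision, and the spread between wells leaves out that between animals.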

Additional observations from a re-analysis of the deposited data

Results flagged for a closer look

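Among the 252 sets of 5 arrays (42 members in 6 groups), 16 held 1 array whose signal lay far from the other 4 (gap over range above 0.71, Dixon's 95% value), and chance gives about 1 in 20. One culture read high for Lamp1 in replicate 2 of DMSO, 24 h (23664, the other 4 at 20565 to 21363) and Scarb2 in replicate 1 of 1000 uM, 48 h (9377, the other 4 at 8273 to 8556). A high value also marked Ctsd in replicate 5 of 60 uM, 48 h (14948, the other 4 at 12932 to 13232) and Ctss in replicate 4 of 60 uM, 48 h (1427, the other 4 at 1349 to 1363). Further high values were Glb1 in replicate 5 of 1000 uM, 24 h (2135, the other 4 at 1813 to 1889.7) and Atp6ap2 in replicate 5 of 60 uM, 48 h (12686, the other 4 at 11974 to 12128). High, too, was Atg3 in replicate 1 of DMSO, 24 h (10764, the other 4 at 8602 to 9141). One culture read low for Ctsl in replicate 5 of 1000 uM, 48 h (65852, the other 4 at 70808 to 72831) and Gaa in replicate 2 of 60 uM, 24 h (2989, the other 4 at 3245 to 3338). A low value marked Psap in replicate 2 of DMSO, 24 h (9631, the other 4 at 10534 to 10865) and Atp6v1a in replicate 5 of 1000 uM, 24 h (6755, the other 4 at 7559 to 7788). The same was true of Atp6v1h in replicate 1 of DMSO, 24 h (7572, the other 4 at 8363 to 8652) and Map1lc3a in replicate 3 of 1000 uM, 48 h (4600.4, the other 4 at 5657 to 5985). Low, too, were Becn1 in replicate 3 of 60 uM, 24 h (4509, the other 4 at 5449.6 to 5816) and Vps11 in replicate 1 of DMSO, 24 h (1603, the other 4 at 1702 to 1735). The last was Vps11 in replicate 5 of 1000 uM, 48 h (1430.2, the other 4 at 1561 to 1599).

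The effect of 1000 uM differed between 48 h and 24 h in 9 members by the interaction test (limma, adjusted over all probe sets kept). The log2 effect after 48 h, less the one after 24 h, was -0.61 for Neu1, -0.53 for Gabarapl1, -0.41 for Atp6v1f, -0.39 for Atp6ap1, -0.35 for Cd63, -0.21 for Atp6v1h and -0.20 for Sqstm1. It was 0.38 for Ctsd and 0.17 for Lamp2. With the second brightest probe set of Lamp2 the value was -0.14 and did not pass.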

How the results depend on the processing

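Beside the fit on the deposited scale, 12 alternatives were run over 9 comparisons. The number of members past the threshold at 1000 uM and 48 h was 16 with spike-in scaling, against 25 on the deposited scale. At 60 uM and 24 h it was 2, against 4, with median centring, with spike-in scaling and with only the groups compared. At 60 uM and 48 h it was 5 with median centring, 2 with spike-in scaling, 6 without the intensity trend and 5 with only the groups compared, against 10. For 1000 uM against 60 uM it was 7 (median centring) and 4 (spike-in scaling) at 24 h, against 12, and 10 (spike-in scaling) at 48 h, against 17. For DMSO over time it was 5 with only the groups compared, against 8, and for the time dependence of 1000 uM 5 with spike-in scaling, against 9. Leaving out each array in turn gave 2 to 5 and 10 to 14 at 24 h (60 uM, then 1000 uM) and 6 to 10 and 20 to 27 at 48 h. It gave 9 to 12 and 15 to 19 between doses (24 h, then 48 h), 6 to 9 for DMSO over time, and 0 to 0 and 7 to 10 for the interactions (60 uM, then 1000 uM).

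Of the member changes that passed on the deposited scale or under the alternative, 11 had opposite signs in the 2 fits. Changes that passed in neither fit turned too: at 1000 uM and 24 h, 13 of 17 hydrolases and 12 of 12 autophagy genes were above 0 with spike-in scaling, against 4 and 6 on the deposited scale. With spike-in scaling, Ctsz (0.067), Neu1 (0.0050) and Sqstm1 (0.0014) at 1000 uM and 24 h, and Ctsc (0.0041) and Atp6v1a (0.0028) at 48 h, were above 0; this scaling adds the same amount to every gene. Quantile normalization gave Gabarap -0.069 at 1000 uM and 48 h. The second brightest probe set gave Atp6ap2 0.37 at 1000 uM and 48 h and 0.44 between doses at 24 h, Atg12 -0.13 between doses at 24 h, Ctsl 0.16 for DMSO over time and Lamp2 -0.14 for the interaction; the cause was not tested. The title numbers run from 1 to 30 in 5 blocks of 6 that hold every group once, and nothing in the labels says what a block is. Arrays of one block deviated together at most weakly (r of -0.051 to 0.11 over 75 pairs, median 0.0056, 1 of them over 0.1). For the 60 uM groups at 24 h and 48 h the mean r was 0.045 within blocks and -0.011 between blocks. By mean r with the arrays of other groups, 11 of 30 arrays were closest to their own block. The beta-actin 3′/5′ ratio ran from 2.25 to 2.39 in the last block, against 2.39 to 2.72 in the first. A replicate block on these numbers, chosen after seeing the data, gave rises and falls of 2 and 1 and 6 and 7 at 24 h (60 uM, then 1000 uM) and 5 and 6 and 10 and 17 at 48 h. It gave 6 and 6 and 7 and 11 between doses (24 h, then 48 h), 6 and 4 for DMSO over time, and 0 and 0 and 1 and 7 for the interactions; the calls it lost were those of Hexa at 60 uM and 24 h and of Lamp2 in the interaction. The number of arrays and the unknown number of animals limit the precision, and the lowest member mean (log2 9.51) lay above the highest blank-probe floor (6.31).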
